A study of Mus musculus with 12 samples.

Results

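The RNA levels of Trp53, which encodes the transcription factor p53, and of 7 genes that p53 is known to activate were followed in mesenchymal stem cells, stromal cells that had been isolated from mouse adipose tissue. The 8 genes are Trp53, Mdm2, Ccng1, Phlda3, Gadd45a, Trp53inp1, Eda2r and Zmat3. They were chosen by name as a pathway group, with earlier results of these data known. They were taken from the deposited tables by their Ensembl gene IDs, and make up 8 of the 56748 gene IDs listed. All 8 were among the 14338 gene IDs that passed the filter on low counts. Cells were grown as 3D spheroids or as 2D cells attached to a surface, and RNA was taken after 24 h and at 0 h. This gives the groups 3D 24 h, 2D 24 h, 3D 0 h and 2D 0 h, with 3 libraries each and 12 in all. Every group was kept in DMEM with serum and antibiotics, and no drug or other agent that damages DNA is named for any of them. The age of the spheroids at 0 h is not stated, nor whether replicates were separate cultures or animals, so the p-values measure a spread between libraries that could be purely technical.

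The p53 protein is kept scarce in unstressed cells, because Mdm2, itself a product of a p53 target gene, marks it for degradation. DNA damage and other stresses free p53 from Mdm2, and it then switches on genes for cell cycle arrest, repair, death and its own restraint. The amount of p53 protein is set mostly by its stability, so the Trp53 transcript does not measure p53 activity. Several of the target genes also answer to other transcription factors, Gadd45a to ATF4 and FOXO proteins among them.

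Library totals ranged from 10182590 to 17109609 expected counts, and a library held from 108 to 10414 expected counts of any one of these genes. Libraries of a group correlated across genes at 0.968 to 0.984 (log2 CPM), against 0.895 to 0.958 between groups. Levels are given as CPM, counts after TMM scaling to equal library size, or as TPM, the authors' deposited transcript abundance, which allows for gene length and library size. Differences are log2 fold changes with a standard error, and a gene was called at an adjusted p under 0.05 over all 14338 genes. In such bulk libraries, fewer cells of a type and less RNA per cell cannot be told apart. Markers of stromal and other cell types were not analysed here, because the tables used do not pair other gene IDs with names.

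The windows around the gene starts, from 250 bases before to 50 after, were searched for the p53 consensus half-site, a motif of 10 letters that reads the same on both strands. RefSeq sequences of build GRCm38.p6 were used, which is not the build of the counts. Windows were found for 6 of the 8 genes, all but Trp53inp1 and Zmat3. A half-site without mismatch stood in 4 of these windows, and in 8.36% of the 32851 windows of all genes. The window of Ccng1 also held the 20-letter full site, 2 half-sites end to end, with 1 letter off, while 0.798% of all windows held one with at most 2 letters off. These 4 windows are shown because they place p53-like letters beside genes whose levels are described next. The matched stretches are in capitals, including the 1 letter of the Ccng1 full site that is off. The windows of Phlda3 and Eda2r held neither motif, but sequence outside the windows was not searched for any gene. A match is a description of letters and not a measured binding site.
Trp53, chr11:69580109-69580408, plus strand: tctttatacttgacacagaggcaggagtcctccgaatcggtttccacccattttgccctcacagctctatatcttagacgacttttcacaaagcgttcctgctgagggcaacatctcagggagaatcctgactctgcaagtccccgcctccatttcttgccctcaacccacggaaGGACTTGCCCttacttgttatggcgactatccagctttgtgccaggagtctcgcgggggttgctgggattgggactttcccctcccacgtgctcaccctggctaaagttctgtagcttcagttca
Mdm2, chr10:117710709-117711008, minus strand: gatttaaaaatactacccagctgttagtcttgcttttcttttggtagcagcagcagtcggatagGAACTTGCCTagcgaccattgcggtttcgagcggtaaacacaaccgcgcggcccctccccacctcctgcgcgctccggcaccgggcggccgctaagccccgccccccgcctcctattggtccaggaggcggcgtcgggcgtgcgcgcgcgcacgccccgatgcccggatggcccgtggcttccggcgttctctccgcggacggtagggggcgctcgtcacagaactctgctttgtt
Ccng1, chr11:40755237-40755536, minus strand: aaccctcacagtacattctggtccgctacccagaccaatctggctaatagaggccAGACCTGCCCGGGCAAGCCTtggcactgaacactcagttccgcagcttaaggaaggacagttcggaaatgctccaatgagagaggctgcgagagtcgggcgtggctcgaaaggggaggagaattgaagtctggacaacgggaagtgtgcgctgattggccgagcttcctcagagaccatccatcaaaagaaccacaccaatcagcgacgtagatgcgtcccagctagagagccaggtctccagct
Gadd45a, chr6:67037358-67037657, minus strand: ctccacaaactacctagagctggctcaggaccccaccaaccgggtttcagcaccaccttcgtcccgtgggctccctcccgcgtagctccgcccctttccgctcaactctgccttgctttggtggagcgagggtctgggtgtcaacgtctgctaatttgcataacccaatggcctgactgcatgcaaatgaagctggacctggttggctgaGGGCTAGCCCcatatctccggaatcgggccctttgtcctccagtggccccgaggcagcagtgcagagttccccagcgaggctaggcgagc

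Among the 8 genes, the calls went in both directions in 3 of the 4 comparisons of 2 groups. At 24 h, spheroids had 3 of the 8 genes higher than attached cells (Gadd45a, Trp53inp1 and Phlda3) and 2 lower (Trp53 and Ccng1). Of all genes tested, 42.5% were called in that comparison, 19.6% higher and 22.8% lower. The libraries did not overlap for 5 of the 8 genes and for 52.9% of all genes. At 0 h, spheroids had 2 higher than attached cells (Gadd45a and Trp53inp1) and 3 lower (Trp53, Phlda3 and Zmat3). Here 45.8% of all genes were called, 23.1% higher and 22.7% lower, and 6 of the 8 genes and 54.4% of all genes had libraries that did not overlap.

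Over 24 h in spheroids, 3 of the 8 genes rose (Gadd45a, Phlda3 and Zmat3) and 0 fell by edgeR's test, and 0 also at an unadjusted p under 0.05 or by DESeq2 or limma. Of all genes 48.5% were called, 23.8% higher and 24.7% lower. The libraries were apart for 4 of the 8 and for 60.3% of all genes. Among these 4 was Eda2r, not called, whose libraries were all lower at 24 h. Over 24 h in attached cells, 3 rose (Gadd45a, Trp53inp1 and Ccng1) and 1 fell (Phlda3). Of all genes 34.4% were called, 17.4% higher and 17.0% lower, and the libraries were apart for 5 of the 8 and for 43.1% of all genes. The culture difference itself changed between 0 h and 24 h for 5 of the 8. The signed log2 fold change was higher at 24 h for 3 (Gadd45a, Phlda3 and Zmat3) and lower for 2 (Trp53inp1 and Ccng1), and it had opposite signs at the times for Phlda3, Zmat3 and Ccng1. Of all genes 39.1% were called for this difference, 18.7% with a higher signed value at 24 h and 20.5% with a lower one. With 8 genes, these counts are too near the shares of all genes to be a result about the group. The median log2 fold change of the 8 genes was 0.07 for spheroids against attached cells at 24 h and 0.08 for those at 0 h. It was 0.09 over 24 h in spheroids and 0.19 in attached cells. Over all genes tested the medians were -0.0018, 0.02, -0.0043 and 0.02 in the same order. Comparisons that share a group of libraries are not independent of each other. The culture comparisons at 24 h and 0 h share no group, but 1 fit over all 12 libraries gave the scaling and spread of both.

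**Figure D1:**
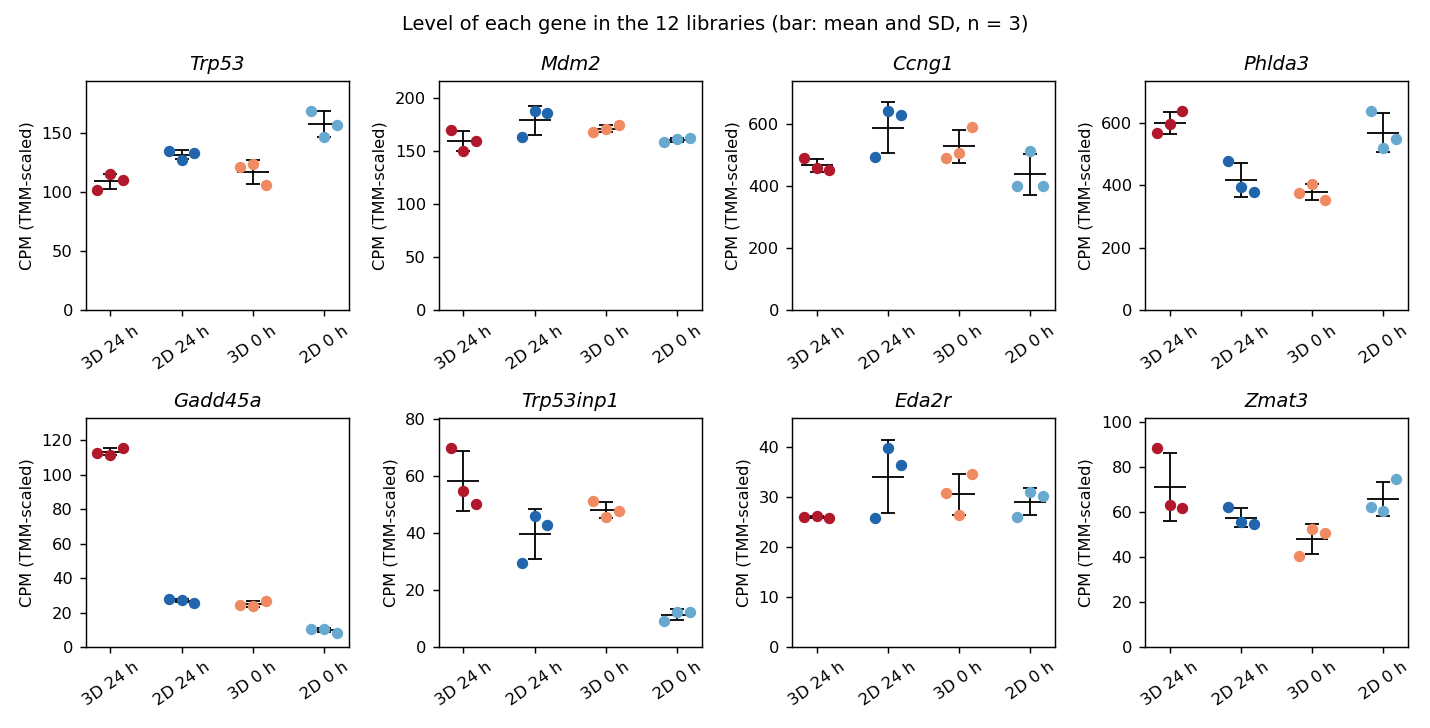
Level of each gene in the 12 libraries as CPM (vertical axes, starting at 0), for the groups 3D 24 h, 2D 24 h, 3D 0 h and 2D 0 h. Points are libraries and bars are the mean and SD of 3; Gadd45a stands at 111.6 to 115.6 CPM in 3D at 24 h and at 8.28 to 27.6 CPM in the 9 other libraries.

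Trp53 (ENSMUSG00000059552) was lower in spheroids than in attached cells at both times. It had 102.4, 115.2 and 110.2 CPM in 3D at 24 h, against 135.4, 127.7 and 133.2 CPM in 2D at 24 h. At 0 h it had 121.6, 124.4 and 106.1 CPM in 3D, against 169.1, 146.8 and 157.4 CPM in 2D. All 3D libraries lay below all 2D libraries at either time. The log2 fold change was -0.27 ± 0.10 at 24 h (SE; edgeR adjusted p = 0.038) and -0.43 ± 0.10 at 0 h (SE; edgeR adjusted p = 0.0024). The call at 24 h was close to the threshold and was lost under 16 of 23 alternatives. It was lost without any 1 library other than 2D 0 h replicate 2, 3D 0 h replicate 3 or 3D 24 h replicate 2, with edgeR adjusted p-values of 0.093 to 0.17 and log2 fold changes of -0.27 to -0.20. Libraries left out included those of 0 h, which are not compared here but share the fit and its scaling. Without 2D 0 h replicate 1, the value was -0.23, and the median over all genes moved from -0.0018 to 0.05. The call at 0 h held under all 23 alternatives. The difference of the culture change between the times was 0.15, with a 95% interval of -0.15 to 0.46 (edgeR adjusted p = 0.43).

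Between the times, Trp53 was not called by edgeR in either culture. The log2 fold change from 0 h to 24 h was -0.10 in 3D, with a 95% interval of -0.32 to 0.11. In 2D it was -0.26, with an interval of -0.47 to -0.04 (edgeR adjusted p = 0.060), although the 24 h libraries all lay below the 0 h ones. That value passed the threshold under 4 of 23 alternatives. These were DESeq2 (adjusted p = 0.031), counts left unrounded (edgeR adjusted p = 0.046), and the fits without 2D 0 h replicate 2 (edgeR adjusted p = 0.035) or without 3D 24 h replicate 1 (edgeR adjusted p = 0.040). On the TPM scale Trp53 averaged 135.7 ± 6.55 in 24 h attached cells and 138.4 ± 8.14 in those at 0 h (SD, n = 3), and the groups overlapped. For all genes tested, the median change over 24 h in 2D was 0.17 on the log2(TPM + 1) scale, against 0.02 in counts. The order of the CPM means was 3D 24 h, 3D 0 h, 2D 24 h and 2D 0 h, lowest first. Only the first 2 overlapped.

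Mdm2 (ENSMUSG00000020184), the ubiquitin ligase that restrains p53 and is its best-known feedback target, was called in no comparison. It had 169.8, 150.5 and 159.4 CPM in 3D at 24 h, against 163.4, 188.0 and 185.9 CPM in 2D at 24 h. At 0 h it had 168.3, 171.4 and 174.8 CPM in 3D, against 159.0, 161.2 and 162.3 CPM in 2D. The groups overlapped at 24 h, while at 0 h the 3D libraries were all slightly above the 2D ones. In CPM the highest group mean was 1.12 times the lowest, the narrowest range among the 8 genes. In TPM it was 1.35 times the lowest, and Trp53 had the narrowest range, at 1.22 times. In 3D against 2D the log2 fold change was -0.16 at 24 h (95% interval -0.36 to 0.04; edgeR adjusted p = 0.18) and 0.09 at 0 h (95% interval -0.11 to 0.29; edgeR adjusted p = 0.45). Over 24 h it was -0.10 in 3D (95% interval -0.30 to 0.10) and 0.16 in 2D (95% interval -0.04 to 0.35). On the TPM scale the change over 24 h in 2D was larger, 0.42 ± 0.13 on the log2(TPM + 1) scale (SE; limma adjusted p = 0.030). There the median over all genes tested was also higher, 0.17 against 0.02 in counts.

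Ccng1 (ENSMUSG00000020326) encodes cyclin G1, another p53 target, which works with the phosphatase PP2A on Mdm2. Its CPM ran from 452.9 to 491.9 in spheroids at 24 h, against 493.4 to 642.4 in attached cells. The ranges at 0 h were 490.3 to 589.7 CPM in spheroids, against 399.4 to 513.5 CPM in attached cells. Neighbouring groups overlapped in the order of means, which had 2D 0 h lowest and 2D 24 h highest, 1.34 times apart. Ccng1 rose over 24 h in 2D, by 0.43 ± 0.12 on the log2 scale (SE; edgeR adjusted p = 0.013), although the libraries of both times overlapped. The call ended without 2D 0 h replicate 1, 2D 24 h replicate 2 or 2D 24 h replicate 3 (edgeR adjusted p = 0.064, 0.059 and 0.064). In 3D the same change was -0.18, with a 95% interval of -0.44 to 0.08.

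In spheroids against attached cells at 24 h, Ccng1 was lower, with -0.33 ± 0.12 on the log2 scale (SE; edgeR adjusted p = 0.037), and the libraries did not overlap. The call was lost under 13 of 23 alternatives. Among them was leaving out any 1 library other than 2D 0 h replicate 2, 2D 24 h replicate 1, 3D 0 h replicate 3 or 3D 24 h replicate 1 (edgeR adjusted p = 0.065 to 0.23, log2 fold change -0.32 to -0.22). Here too, libraries of 0 h share the fit and its scaling. Without 2D 0 h replicate 1, the value was -0.28, and the median over all genes moved from -0.0018 to 0.05. At 0 h the change was 0.27 ± 0.12 (SE; edgeR adjusted p = 0.080). It passed the threshold under 7 of 23 alternatives. Among them were the fits without 2D 0 h replicate 2 (0.40; edgeR adjusted p = 0.013) or 2D 24 h replicate 1 (0.29; edgeR adjusted p = 0.035) and limma on the TPM scale (0.42; adjusted p = 0.034). The others were library totals, upper-quartile scaling, no filter on low counts and leaving out the 50 most abundant genes (edgeR adjusted p = 0.015 to 0.044). The difference between the times, -0.60 ± 0.17, was called (SE; edgeR adjusted p = 0.011) and held under all 22 alternatives run for it.

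Gadd45a (ENSMUSG00000036390), a small stress protein that binds PCNA and takes part in growth arrest and DNA repair, showed the widest range of the 8 genes. It had 112.7, 111.6 and 115.6 CPM in 3D at 24 h, against 27.6, 27.4 and 25.8 CPM in 2D at 24 h. At 0 h it had 24.7, 23.8 and 27.0 CPM in 3D, against 10.4, 10.5 and 8.28 CPM in 2D. The 3D libraries lay above the 2D libraries at both times, and the 24 h libraries above the 0 h libraries in both cultures. The only groups that overlapped were 2D at 24 h and 3D at 0 h. The highest group mean was 11.6 times the lowest.

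In 3D against 2D, Gadd45a was 4.21-fold higher at 24 h (log2 fold change 2.08 ± 0.12, SE; edgeR adjusted p = 3.3e-10) and 2.59-fold higher at 0 h (1.37 ± 0.13, SE; edgeR adjusted p = 1.6e-07). Over 24 h it rose 4.51-fold in 3D (2.17 ± 0.12, SE; edgeR adjusted p = 2.7e-10) and 2.77-fold in 2D (1.47 ± 0.13, SE; edgeR adjusted p = 3.7e-07). Its rise over 24 h in 3D ranked 269 from the top of 14338 genes tested. The culture difference was larger at 24 h than at 0 h by 0.70 ± 0.17 on the log2 scale (SE; edgeR adjusted p = 0.0036). All 5 of these calls held under every alternative run, 23 for each comparison of 2 groups and 22 for the difference between the times. Gadd45a was the 1 gene of the 8 whose expected counts were not whole, which was so in all 12 libraries. The authors' counting had thus divided part of its reads among several genes, which makes its level less certain.

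**Figure D2:**
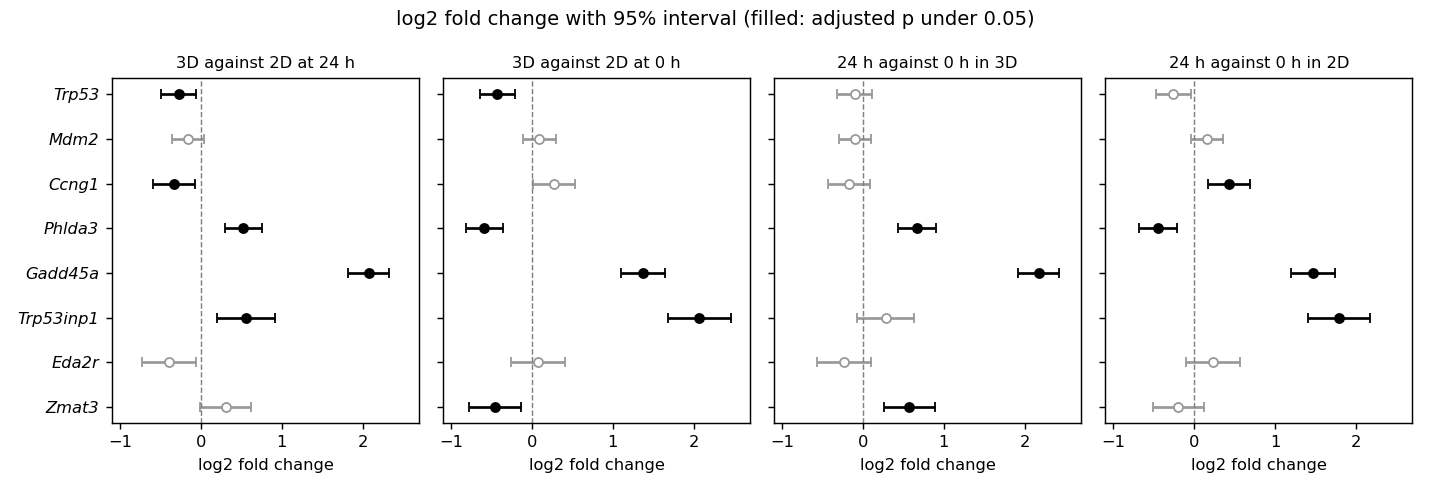
log2 fold changes (horizontal axes) of the 8 genes in 4 comparisons, with 95% intervals; filled black points passed an adjusted p under 0.05 over all genes and open grey points did not. Gadd45a passed in all 4, at 2.08, 1.37, 2.17 and 1.47 from left to right, and Mdm2 in none.

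Trp53inp1 (ENSMUSG00000028211) encodes a stress protein that binds p53 and its kinase HIPK2 and also acts in autophagy. It had 69.8, 54.5 and 50.003 CPM in 3D at 24 h, against 29.6, 46.1 and 42.7 CPM in 2D at 24 h. At 0 h it had 51.1, 45.4 and 47.6 CPM in 3D, against 9.29, 12.4 and 12.4 CPM in 2D. The 2D libraries at 0 h thus stood apart from all others, below the lowest of them by more than their own spread. In 3D against 2D it was 4.20-fold higher at 0 h (log2 fold change 2.07 ± 0.18, SE; edgeR adjusted p = 8.4e-08) and 1.47-fold higher at 24 h (0.56 ± 0.17, SE; edgeR adjusted p = 0.013). The call at 24 h ended without 3D 24 h replicate 1, the highest library (0.43; edgeR adjusted p = 0.064), and on the TPM scale (limma adjusted p = 0.085).

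Over 24 h, Trp53inp1 rose 3.46-fold in 2D (log2 fold change 1.79 ± 0.18, SE; edgeR adjusted p = 2.2e-06), rank 367 from the top of all genes tested. In 3D the change was 0.28, with a 95% interval of -0.08 to 0.63 (edgeR adjusted p = 0.18), and the libraries overlapped. The culture difference was smaller at 24 h than at 0 h by a log2 difference of -1.51 ± 0.25 (SE; edgeR adjusted p = 0.00011), a call that held under all 22 alternatives. Its direction is opposite to that of Gadd45a, although both genes were higher in 3D at either time.

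Phlda3 (ENSMUSG00000041801) encodes a small protein that competes with the kinase Akt for membrane lipids. It was the most abundant of the 8 genes per length in all groups. It had 567.2, 596.1 and 637.3 CPM in 3D at 24 h, against 478.4, 393.9 and 378.4 CPM in 2D at 24 h. At 0 h it had 376.4, 404.7 and 353.6 CPM in 3D, against 638.4, 519.8 and 547.9 CPM in 2D. The spheroid libraries were thus all above the attached ones at 24 h and all below at 0 h. The log2 fold change in 3D against 2D was 0.53 ± 0.11 at 24 h (SE; edgeR adjusted p = 0.00090) and -0.59 ± 0.11 at 0 h (SE; edgeR adjusted p = 0.00032). The difference between the times was 1.11 ± 0.16 (SE; edgeR adjusted p = 2.4e-05).

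Over 24 h, Phlda3 rose 1.59-fold in 3D (log2 fold change 0.67 ± 0.11, SE; edgeR adjusted p = 9.4e-05). In 2D it fell by 0.45 ± 0.11 on the log2 scale (SE; edgeR adjusted p = 0.0049). The fall in 2D was -0.22 ± 0.09 on the log2(TPM + 1) scale and not called there (SE; limma adjusted p = 0.075). On that scale the median over all genes tested was 0.17 in this comparison, against 0.02 in counts. The other 4 calls of Phlda3 held under all alternatives run. Its 2 low groups, 3D at 0 h and 2D at 24 h, overlapped in CPM, and so did its 2 high groups, 2D at 0 h and 3D at 24 h. In TPM no groups overlapped, and the order was 3D 0 h, 2D 24 h, 2D 0 h and 3D 24 h, lowest first.

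**Figure D3:**
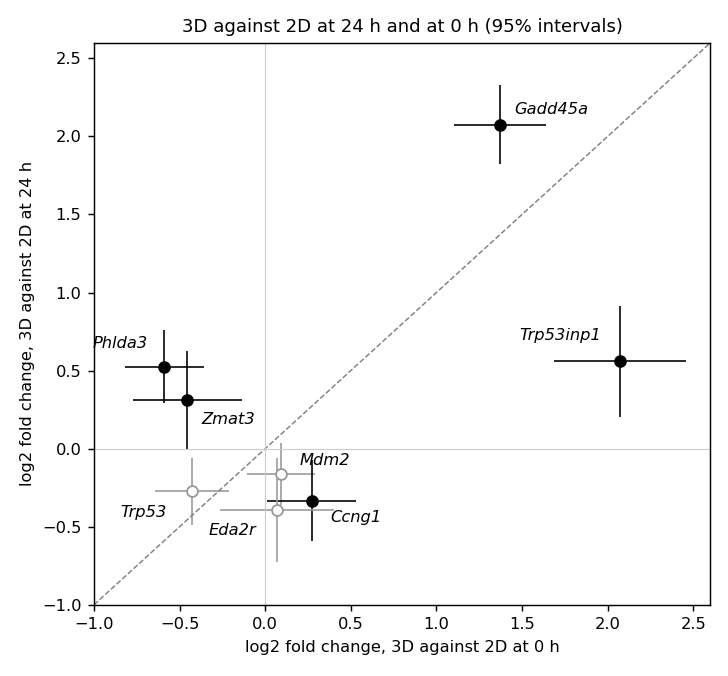
log2 fold change of 3D against 2D at 24 h (vertical axis) and at 0 h (horizontal axis), with 95% intervals; on the dashed line both are equal, and filled points were called for that difference. Gadd45a and Phlda3 lie above the line by 0.70 and 1.11, Trp53inp1 below it by a difference of -1.51, and Trp53 and Mdm2 near it.

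Zmat3 (ENSMUSG00000027663) encodes a zinc finger protein that binds RNA and affects mRNA stability and splicing. Its CPM ran from 61.8 to 88.7 in spheroids at 24 h, against 54.8 to 62.4 in attached cells. The ranges at 0 h were 40.4 to 52.7 CPM in spheroids, against 60.7 to 74.6 CPM in attached cells. The spheroids at 0 h lay below the other groups, which overlapped each other along the order of means. Zmat3 was lower in 3D than in 2D at 0 h, with -0.46 ± 0.15 on the log2 scale (SE; edgeR adjusted p = 0.020). This call ended under 5 of 23 alternatives. These were the fits without 2D 0 h replicate 3 (-0.32; edgeR adjusted p = 0.11) or 3D 0 h replicate 1 (-0.33; edgeR adjusted p = 0.13), library totals (-0.36; edgeR adjusted p = 0.064), upper-quartile scaling (-0.34; edgeR adjusted p = 0.074) and limma on the TPM scale (-0.36; adjusted p = 0.20). At 24 h the change was 0.31, with a 95% interval of -0.0049 to 0.63 (edgeR adjusted p = 0.11), and it was called with library totals (0.44; edgeR adjusted p = 0.026). Over 24 h Zmat3 rose in 3D by 0.57 ± 0.15 (SE; edgeR adjusted p = 0.0047), while the change in 2D was -0.19 with a 95% interval of -0.51 to 0.12. The difference between the times, 0.77 ± 0.21, was called (SE; edgeR adjusted p = 0.0083). On the TPM scale, the rise in 3D and that difference were not called either (limma adjusted p = 0.11 and 0.21).

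Eda2r (ENSMUSG00000034457) encodes a receptor of the TNF receptor family that binds ectodysplasin A2. It was called in no comparison. Its CPM ran from 25.9 to 26.3 in spheroids at 24 h, against 25.9 to 39.9 in attached cells. The ranges at 0 h were 26.4 to 34.6 CPM in spheroids, against 26.0 to 31.0 CPM in attached cells. In 3D against 2D the log2 fold change was -0.39 at 24 h (95% interval -0.72 to -0.06; edgeR adjusted p = 0.055) and 0.07 at 0 h (95% interval -0.26 to 0.40; edgeR adjusted p = 0.74). Without 2D 24 h replicate 1, the low library of its group, the change at 24 h was -0.50 (edgeR adjusted p = 0.013). Without the same library the difference between the times was -0.59 (edgeR adjusted p = 0.029), against -0.46 with all libraries (edgeR adjusted p = 0.11). Over 24 h the log2 fold change was -0.23 in 3D (95% interval -0.57 to 0.10) and 0.23 in 2D (95% interval -0.10 to 0.56). The 3D libraries at 24 h all lay slightly below those at 0 h, while the 2D libraries overlapped.

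Per length, the 8 genes kept much of their order across the groups. On the TPM scale, Phlda3 averaged 808.5 ± 53.1 in spheroids and 543.6 ± 33.2 in attached cells at 24 h, then 468.9 ± 29.8 in spheroids and 635.7 ± 54.1 in attached cells at 0 h (SD, n = 3). Ccng1 came second in all groups, with means of 228.0, 287.8, 243.6 and 182.2 TPM in the same order of groups. Trp53 and Mdm2 followed in 2D at 24 h and in both groups at 0 h. In 3D at 24 h they stood at 113.7 ± 0.926 and 98.6 ± 12.6 TPM, below Gadd45a at 211.0 ± 22.6 TPM (SD, n = 3). Gadd45a had 46.1 ± 1.70 TPM in attached cells at 24 h, while at 0 h it had 42.6 ± 5.01 TPM in spheroids and 14.4 ± 1.93 TPM in attached cells, where it was rank 7 of 8. Trp53inp1 was the least abundant in 2D at both times, with 12.5 ± 3.55 TPM at 24 h and 3.03 ± 0.614 TPM at 0 h. In 3D Zmat3 was the least abundant, with 16.4 ± 3.98 TPM at 24 h and 11.9 ± 2.79 TPM at 0 h.

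**Figure D4:**
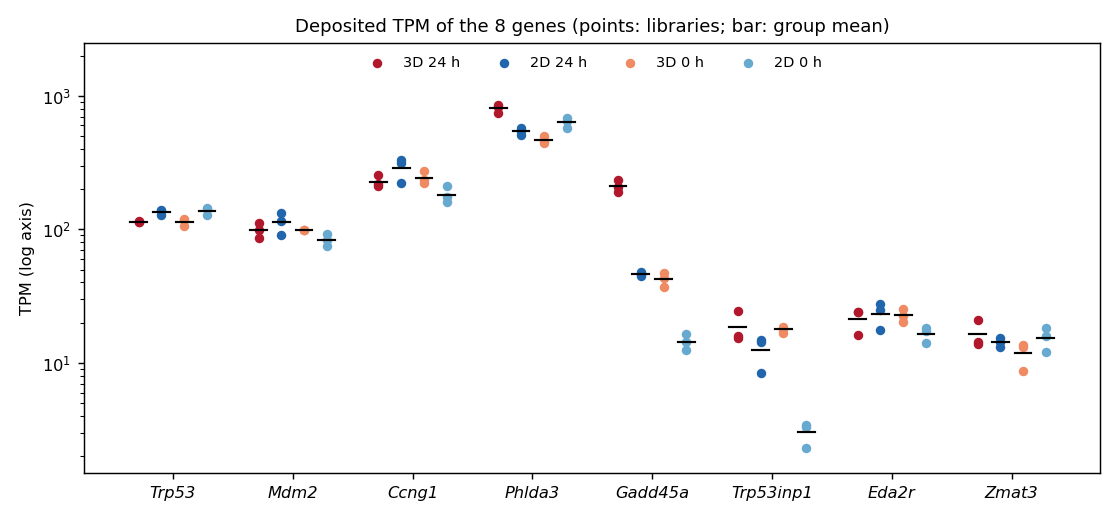
Deposited TPM of the 8 genes on a log axis, with the groups 3D 24 h, 2D 24 h, 3D 0 h and 2D 0 h from left to right for each gene; points are libraries and bars group means. Phlda3 is highest in every group, and Gadd45a spans from 14.4 TPM in 2D at 0 h to 211.0 TPM in 3D at 24 h.

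The ratio of expected count to TPM follows the effective length that the authors' quantification gave a gene in a library, which depends on its mix of transcripts. The ratio was taken on the log2 scale relative to the library's median over 9748 genes. For Trp53inp1 it was 1.05, 0.80 and 0.85 in 3D at 0 h, and between 1.12 and 1.29 in the 9 other libraries, so that the assigned length was shorter in 3D at 0 h. Its shift in 3D against 2D at 0 h was -0.35, and 96.4% of the genes shifted less. The rise of Trp53inp1 in 3D against 2D at 0 h was 2.07 in counts, and larger on the log2(TPM + 1) scale, 2.23 ± 0.23 (SE; limma adjusted p = 3.8e-06). The added 1 shrinks a change at such low levels, as the group means were 17.8 TPM in 3D and 3.03 TPM in 2D at 0 h. Over all genes tested, the median of this comparison was 0.13 on the log2(TPM + 1) scale, against 0.02 in counts. Over 24 h in 3D the shift of Trp53inp1 was 0.305, and 92.3% of genes shifted less. Its change there was 0.28 in counts and 0.02 on the log2(TPM + 1) scale (limma adjusted p = 0.94), called on neither. For Eda2r the shift in 3D against 2D was -0.26 at 0 h and -0.22 at 24 h, with 93.0% and 88.9% of genes shifting less. On the log2(TPM + 1) scale its change in 3D against 2D was 0.44 at 0 h and -0.12 at 24 h, neither called (limma adjusted p = 0.089 and 0.68). The ratio of Zmat3 was 1.06 in 2D 0 h replicate 1 and between 1.39 and 1.69 in all other libraries. Gene-level files do not show which transcripts these were. For Trp53, Mdm2, Ccng1 and Phlda3 the shifts in the 4 comparisons lay between -0.09 and 0.05.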

How the data were processed

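RNA-seq was done on 12 libraries; per the labels' protocols, SMART-seq v4 chemistry for low input was followed by a stranded TruSeq mRNA kit. Reads were handled with RSEM, STAR and FastQC 0.11.9 on build GRCm39, per the submitters' processing notes; other versions, the settings and the annotation were not given in the sources used here. Expected counts, which may be fractional, and log2(TPM + 1) values are as the authors deposited them; column names give day 0 and day 1, read as 0 h and 24 h. Expected counts were rounded and fitted in R 4.3.3 with edgeR 4.0.16 (quasi-likelihood, TMM, minimum count 10, 1 term per group, 8 residual degrees of freedom), with Benjamini-Hochberg adjustment over all 14338 genes. Standard errors are the log2 fold change over the root of the test's F, and 95% intervals use its degrees of freedom. The steps were tested on simulated counts in which few genes differed between groups. In these data many did, so that test does not cover the scaling used here. Alternatives included DESeq2 1.42.0 and limma 3.58.1 on the log2(TPM + 1) values. The 8 genes and the lists were chosen with earlier results of these data known. The rule for named genes took all 8, plus members of lists of further p53 targets and regulators and the genes of most alike pattern. Those parts, and the marker lists, were not analysed, because no table used pairs gene IDs with names; names of the 8 genes came with their IDs.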

Additional observations from a re-analysis of the deposited data

Results flagged for a closer look

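Spheroids differed from attached cells by another amount at 24 h than at 0 h for 5 of the 8 genes, in edgeR's test of the difference between both log2 fold changes, where 39.1% of all genes were called. The log2 fold change was positive at both times for Gadd45a, where it was larger at 24 h (24 h minus 0 h 0.70; edgeR adjusted p = 0.0036), and for Trp53inp1, where it was smaller (-1.51; edgeR adjusted p = 0.00011). For 3 genes it had opposite signs at the times. It was above 0 at 24 h and below 0 at 0 h for Phlda3 (1.11; edgeR adjusted p = 2.4e-05) and Zmat3 (0.77; edgeR adjusted p = 0.0083), and the reverse held for Ccng1 (-0.60; edgeR adjusted p = 0.011). Of these 3, only Phlda3 was called at each time; Zmat3 was called at 0 h and Ccng1 at 24 h. The call for Zmat3 was lost on the log2(TPM + 1) scale (limma adjusted p = 0.21), and the other 4 held there.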

How the results depend on the processing

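Across 23 alternatives to the settings used, 912 values of the 8 genes were recomputed: 854 kept their direction and their side of the threshold, 42 lost a call, 15 gained one and 1 changed sign. The sign change was Eda2r in 3D against 2D at 0 h, not called either way, at -0.0275 without 3D 0 h replicate 3 and up to 0.19 without another library; it was 0.44 on the log2(TPM + 1) scale. The count of the 8 genes called in 3D against 2D at 24 h was 3 in place of 5 with upper-quartile scaling, with unrounded counts, with limma on log2(TPM + 1), and with the replicate number as a block. The genes lost were Trp53 and Ccng1 with the first, second and last of these, and Ccng1 and Trp53inp1 with limma. Leaving out 1 library gave 3 to 5, and it gave 3 for most of the libraries. In all, this count was 3 under 12 of the 23 alternatives. The other counts stayed within 1.5 times. Same-numbered libraries did not deviate together (correlations -0.23 to 0.05 over 18 pairs). With 3 libraries per group, this cannot show whether libraries of the same number had a common origin. The block moved no other count of called genes by over 1.5 times. With library totals, the median over all genes in 3D against 2D became 0.12 at each time. Calls there were then 59.2% higher at 0 h, against 50.4% with TMM, and 57.4% at 24 h, against 46.2%. With limma on log2(TPM + 1), 69.7% of calls over 24 h in 2D were higher, against 50.5%. The planned lists of further targets and regulators were not run.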
